A study of Mus musculus with 8 samples.

Results

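Padi2 and Padi4 encode 2 peptidylarginine deiminases, and both were measured in immature myeloid cells (IMCs) expanded from mouse bone marrow. They are 2 of the 24062 genes in the deposited count table, and the family has 5 genes in the mouse (Padi1, Padi2, Padi3, Padi4 and Padi6). Padi2 was chosen by its own counts, which changed in PARP1CKO, and Padi4 as its relative. Values of both in PARP1CKO against PARP1 WT are therefore given as a description without a test. The comparison tested is PARP2CKO against PARP2 WT.

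Total RNA was sequenced from 8 libraries of C57BL/6 IMCs, in biological duplicate for each of 4 groups. PARP1 WT mice were PARP1 flox/flox, PARP1CKO mice were PARP1 flox/flox+lysozyme-Cre, PARP2 WT mice were PARP2 flox/flox, and PARP2CKO mice were PARP2 flox/flox+lysozyme-Cre. All mice were 2 months old, and marrow was grown for 3 days in M-CSF, the growth factor of monocytes and macrophages, at 40 ng per mL. Lysozyme-Cre is active in the myeloid lineage and was carried by the CKO mice but not by the WT mice, so an effect of Cre itself cannot be told apart from that of the deletion. Whether a library came from 1 animal or from several is not given in the sources used here. P-values weigh a difference against the spread between duplicates, estimated from all 4 groups together and partly shared across genes.

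Peptidylarginine deiminases are calcium-dependent enzymes that convert arginine side chains of proteins to citrulline, which removes a positive charge. PAD4, the product of Padi4, enters the nucleus and citrullinates histones, and in neutrophils this accompanies the release of chromatin as extracellular traps. PAD2, the product of Padi2, is found in macrophages and other leukocytes and acts on cytoskeletal proteins such as vimentin as well as on histones.

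Between 37852450 and 61845125 counts were assigned to genes in a library. Values are given as CPM, which scales a gene's counts to the library's total, here adjusted by edgeR's TMM factors. The PARP1CKO libraries held 63.2 and 59.1 CPM of Parp1 (202 and 211 in their controls), and the PARP2CKO libraries 25.8 and 25.6 CPM of Parp2 (48.2 and 48.3 in theirs). The PARP2 WT libraries differed from each other in Parp1, at 251 and 155 CPM, against 263 and 264 CPM in PARP2CKO. The myeloid marker Itgam (CD11b) lay between 881 and 1035 CPM and the M-CSF receptor Csf1r between 1134 and 1273 CPM in all 8 libraries. Of the antigens seen by anti-Gr1, Ly6c2 was at 53.9 to 72.2 CPM, and no row for Ly6g was used here.

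The 5 Padi genes lie in 1 cluster on chromosome 4 of mm10 (GENCODE M21 on GRCm38). Padi2 runs on the plus strand from 140906344 to 140952586, and Padi4 on the minus strand from 140745865 to 140774236, with Padi3 and Padi1 between them. To show how the 2 start sites differ, the promoters are printed from RefSeq (GRCm38.p6), each covering 250 bases before the start and 50 after it, 5′ to 3′ on the gene's own strand. Both members matched an entry. The Padi2 window is chr4:140906110-140906409 on the plus strand and the Padi4 window is chr4:140774154-140774453 on the minus strand. The RefSeq start lies 16 bases inside the GENCODE model of Padi2 and 33 bases inside that of Padi4, and motif positions are counted from the RefSeq start. Capitals mark matches on either strand. The TATA box was searched as TATAAA and the AP-1 site as TGANTCA. The GC box was searched as GGGCGG, which reads CCGCCC where it lies on the other strand. The remaining motif was the CCAAT box, searched by its name. No match overlaps another.
Padi2: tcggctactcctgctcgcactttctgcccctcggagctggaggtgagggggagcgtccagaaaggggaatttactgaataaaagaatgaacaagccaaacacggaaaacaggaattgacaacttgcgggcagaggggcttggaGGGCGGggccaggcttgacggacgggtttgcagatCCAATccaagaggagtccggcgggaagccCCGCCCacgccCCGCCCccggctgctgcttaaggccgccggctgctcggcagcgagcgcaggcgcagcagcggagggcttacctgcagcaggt
Padi4: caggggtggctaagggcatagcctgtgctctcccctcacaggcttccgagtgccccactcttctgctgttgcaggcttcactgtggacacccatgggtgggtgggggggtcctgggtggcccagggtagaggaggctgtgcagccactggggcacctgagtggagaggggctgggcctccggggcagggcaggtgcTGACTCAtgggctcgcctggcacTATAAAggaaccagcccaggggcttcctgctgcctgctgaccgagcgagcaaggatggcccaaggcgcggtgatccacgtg
The Padi4 window held a TATA box whose first base is at -31 and an AP-1 match at -54, and no GC box. The Padi2 window held 3 GC boxes, at -107, -43 and -32, and 1 CCAAT box at -72, and neither a TATA box nor an AP-1 match. Of 32851 mouse promoter windows of 300 bases, 13.6% held the TATA letters, 7.81% the AP-1 letters, 35.7% the GC box and 37.4% the CCAAT box. Padi2 had 22 CpG dinucleotides in its window and Padi4 had 8, against a median of 7 over all windows. Further searches, for GAGGAA (PU.1) and TTGCNNAA (C/EBP), found no match in either window, against 28.3% and 10.8% of all windows. A match to letters is not evidence of binding.

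Padi2 and Padi4 were the 2 Padi genes with substantial counts in IMCs (the plot of the family per kb shows this). Padi2 had between 915 and 1564 counts in a library and Padi4 between 842 and 1755, which by counting error alone gives a relative error of at most 3.31% and 3.45%. Per kb of exon in the GENCODE M21 models, the mean level over 8 libraries was 4.97 ± 0.667 CPM per kb for Padi2 and 5.44 ± 0.949 CPM per kb for Padi4 (SD, n = 8). Among 12552 genes that passed the filter on low counts and have a length, 48.2% had a lower mean level per kb than Padi2 and 50.4% a lower one than Padi4. Padi3, known from skin and hair follicle, was at 0.0707 ± 0.0308 CPM per kb (SD, n = 8), from 2 to 23 counts in a library. Padi1, an epidermal enzyme, had 0 to 3 counts and Padi6, an oocyte gene, also had 0 to 3, and neither passed the filter on low counts. A count of 1 corresponded to 0.0168 to 0.02585 CPM at these depths, so levels of Padi1 and Padi6 below this were not detectable.

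**Figure D1:**
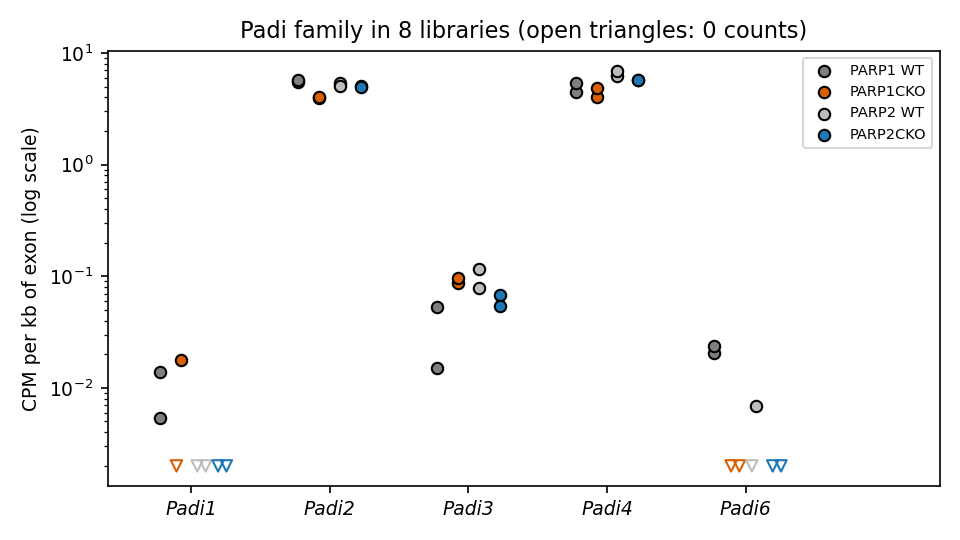
Level of each Padi gene in the 8 libraries, in CPM per kb of exon on a log axis, with 1 point for each library colored by group and open triangles for libraries with 0 counts. Padi2 and Padi4 lie near 5 CPM per kb, Padi3 below 0.2, and Padi1 and Padi6 at or near 0 counts.

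In PARP1CKO IMCs both libraries had less Padi2 than both PARP1 WT libraries. The PARP1 WT libraries held 27.8 and 29.0 CPM of Padi2, and the PARP1CKO libraries 19.8 and 20.2 CPM. The means were 28.4 ± 0.909 and 20.01 ± 0.321 CPM (SD, n = 2), a fitted log2 fold change of -0.51, or 1.42-fold lower in PARP1CKO. The groups did not overlap, as for 20.2% of all genes tested in this direction. Padi2 was chosen for this contrast, so no test is given. Among the 13197 genes tested, 274 (2.08%) had a log2 fold change as low as or lower than that of Padi2. With each PARP1 line library left out in turn the log2 fold change of Padi2 stayed between -0.54 and -0.48. The gene was chosen by these values, so this range and the rank before it are descriptions only. In a bulk culture such as this, fewer cells that express a gene and less of its RNA in each cell cannot be told apart.

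Padi4 did not separate the same groups. Its level was 21.8 and 25.8 CPM in the PARP1 WT libraries and 19.6 and 23.7 CPM in the PARP1CKO libraries, so PARP1CKO replicate 2 lay above PARP1 WT replicate 1. The fitted log2 fold change of -0.14 moved with single libraries. It was -0.01 without PARP1 WT replicate 2 and also without PARP1CKO replicate 1 (-0.0131 and -0.0081), and -0.26 and -0.29 without PARP1 WT replicate 1 and PARP1CKO replicate 2.

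In PARP2CKO IMCs the level of Padi2 differed little from that in PARP2 WT. Its level was 27.1 and 25.4 CPM in the PARP2 WT libraries and 25.2 and 24.8 CPM in the PARP2CKO libraries. Both PARP2CKO libraries were lower, as for 18.8% of all genes tested, though PARP2 WT replicate 2 and PARP2CKO replicate 1 were nearly level. The means were 26.2 ± 1.17 and 24.99 ± 0.261 CPM (SD, n = 2). The log2 fold change was -0.07 (standard error 0.0552, 95% interval -0.19 to 0.06) and did not pass the threshold (adjusted p = 0.956, unadjusted p = 0.242, by the quasi-likelihood test of edgeR, adjusted by Benjamini-Hochberg over all genes). Of the genes tested, 22.7% had a log2 fold change as low or lower. The estimate was -0.02 without PARP2 WT replicate 1 and -0.11 without PARP2 WT replicate 2. On the linear scale the interval runs from 0.874 to 1.04 times the WT level. The effects of the 2 deletions on Padi2 were not tested against each other, because the PARP1 contrast chose the gene.

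Padi4 stood at 30.1 and 33.7 CPM in the PARP2 WT libraries and was lower in both PARP2CKO libraries, at 27.6 and 28.0 CPM. The means were 31.9 ± 2.54 and 27.8 ± 0.300 CPM (SD, n = 2). The fitted log2 difference was -0.20 (standard error 0.104, 95% interval -0.44 to 0.03). It did not pass the quasi-likelihood test over all genes (adjusted p = 0.954, unadjusted p = 0.0861, Benjamini-Hochberg adjustment in edgeR). In this comparison 0.0530% of the genes tested were called, 4.83% had an unadjusted p-value under 0.05, and 18.8% separated the groups in this direction. Without PARP2 WT replicate 2, the highest library for Padi4, the log2 fold change was -0.12.

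**Figure D2:**
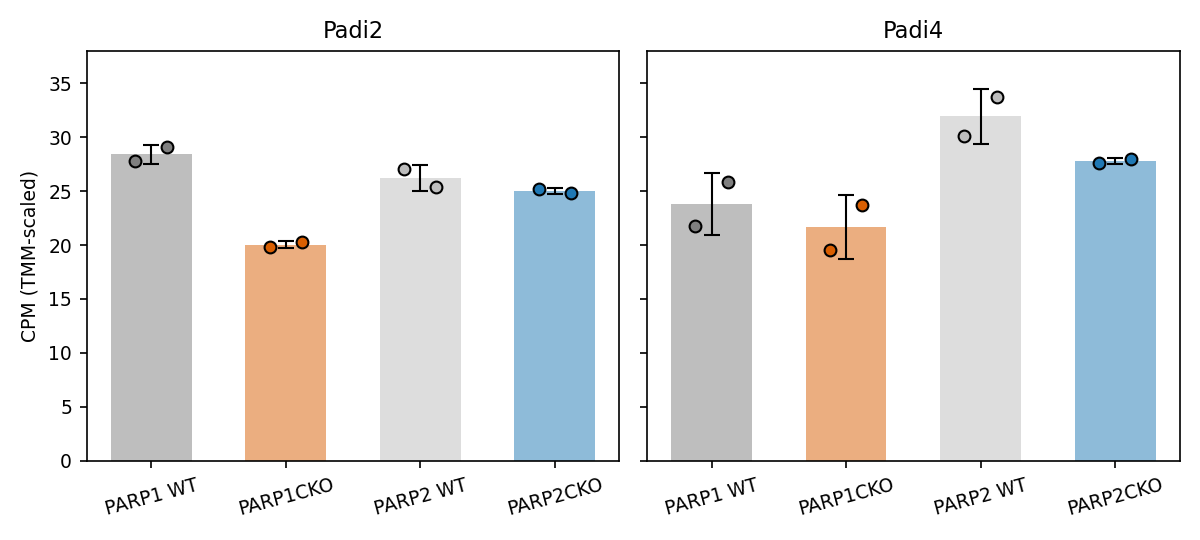
Padi2 (left) and Padi4 (right) in CPM by group, with points for single libraries, bars for group means and error bars for the SD of 2 libraries. Padi2 has its lowest group mean in PARP1CKO (libraries at 19.8 and 20.2 CPM), the group whose contrast chose the gene. Padi4 is at 27.6 CPM or more in all PARP2 line libraries and at 25.8 CPM or less in all PARP1 line libraries.

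The order of the groups thus differed between the genes. For Padi2 the means ran from PARP1 WT (28.4 CPM) through PARP2 WT (26.2) and PARP2CKO (24.99) to PARP1CKO (20.01). PARP1 WT and PARP2 WT differed by more than the SD of either, and PARP2 WT and PARP2CKO by about the SD of PARP2 WT (1.17 CPM). The low place of PARP1CKO belongs to the contrast by which the gene was chosen. For Padi4 they ran from PARP2 WT (31.9 CPM) through PARP2CKO (27.8) and PARP1 WT (23.8) to PARP1CKO (21.7). The last 2 differed by less than their SDs (2.87 and 2.95 CPM). All 4 libraries of the PARP2 floxed line had more Padi4 than all 4 of the PARP1 floxed line, a split in this direction that 10.5% of all genes tested showed, with 9.93% the opposite way. Since no mice of the 2 lines share a group, the line, its colony and any handling of its cultures cannot be told apart.

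The balance of the 2 enzymes was read within each library, where scaling cancels. The ratio of Padi4 to Padi2 per kb was 0.813 and 0.922 in PARP1 WT, the 2 libraries in which Padi2 was the higher. The PARP1CKO libraries had ratios of 1.025 and 1.216. Ratios of 1.155 and 1.377 were found for PARP2 WT and of 1.136 and 1.17 for PARP2CKO. The higher ratio in PARP1CKO than in PARP1 WT includes the lower Padi2 by which the gene was chosen.

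The 2 genes share a cluster, so the genes around them were measured too. Of 44 other annotated genes within 500 kb of the cluster, 25 were in the table and 12 passed the filter. None of the 12 was called in either comparison by the quasi-likelihood test (0.106% of all genes in PARP1CKO and 0.0530% in PARP2CKO), with 4 at an unadjusted p-value under 0.05 in PARP1CKO (11.3% of all genes) and 0 in PARP2CKO (4.83% of all genes). In PARP1CKO 8 of the 12 were higher and 4 lower. Padi3, between Padi4 and Padi2, went from 2 and 9 counts in PARP1 WT to 15 and 15 in PARP1CKO, a log2 fold change of 1.33 on few counts (edgeR adjusted p = 0.397). Atp13a2, a lysosomal transporter gene beyond the 3′ end of Padi2, stood at 187.5 and 202 CPM in the PARP1 WT libraries and at 230.5 and 229.9 CPM in the PARP1CKO libraries, a log2 difference of 0.24 (edgeR adjusted p = 0.143). Groups separated in this upward direction for 21.0% of all genes. The nearest tested gene beyond Padi2, Sdhb of mitochondrial complex II, had a log2 fold change of -0.05. The lowest of the 12 was the receptor kinase gene Epha2 at -0.36, whose groups overlapped. An antisense gene, Gm13031, overlaps an exon of Padi2 and had 0 to 4 counts in a library. The strand setting of the counting is not given in the sources used here, so reads of Padi2 and Gm13031 over that exon cannot be told apart.

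**Figure D3:**
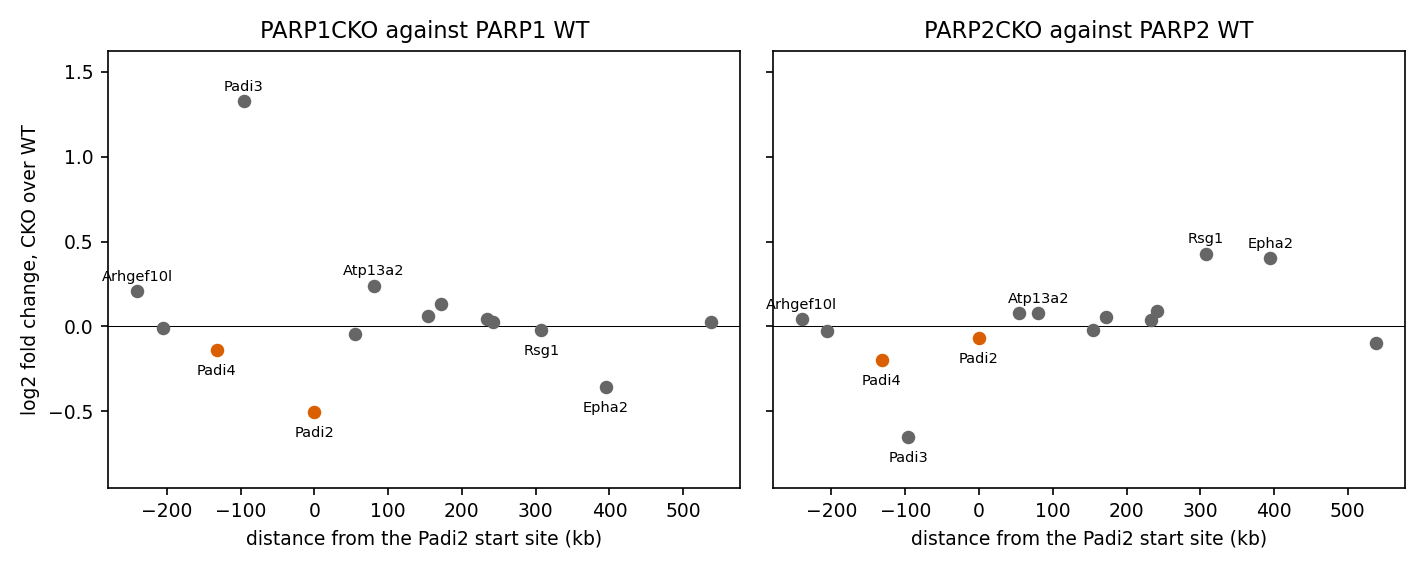
Fitted log2 fold change of each tested gene within 500 kb of the Padi cluster against the distance of its start from the Padi2 start site in kb, for PARP1CKO (left) and PARP2CKO (right), with Padi2 and Padi4 in orange. In PARP1CKO the neighbors run from -0.36 (Epha2) to 1.33 (Padi3, on few counts), and Padi2, chosen by this contrast, is at -0.51.

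The wider pathway was described with 6 lists, which hold 59 genes besides the 2 members. In PARP1CKO 30 of the 50 tested were lower and 20 higher, with a median log2 fold change of -0.01 against 0.01 over all genes. None was called by edgeR's quasi-likelihood test, which called 0.106% of all genes. Unadjusted p-values were under 0.05 for 10 of them (20.0%, against 11.3% of all genes). The likelihood-ratio test, which called 1.11% of all genes, called Ass1 and Npm1, and DESeq2 (0.789% of the 10894 genes to which it gave an adjusted p) called Npm1 and H3f3b. In PARP2CKO 25 were lower and 25 higher, with a median of -0.00054 against -0.0014 over all genes. There 0 were called by the quasi-likelihood test, the likelihood-ratio test (0.296% of all genes) or DESeq2 (0.213% of 12685 genes), and 0 had an unadjusted p-value under 0.05.

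The genes of proteins that PADs are known to citrullinate, 16 in this list, centred on a log2 fold change of -0.02 in PARP1CKO and -0.0042 in PARP2CKO (medians). Vim, which encodes the PAD substrate vimentin, stood at 2117 and 2303 CPM in the PARP1 WT libraries, at 2397 and 2004 CPM with PARP1CKO, at 2675 and 2441 CPM for PARP2 WT and at 3068 and 2725 CPM for PARP2CKO. The PARP1 groups overlapped. Both PARP2CKO libraries were above their controls, as for 18.4% of all genes, by a log2 difference of 0.18 (edgeR adjusted p = 0.954). Npm1, which encodes a nucleolar histone chaperone, had 880 and 889 CPM in the PARP1 WT libraries and 781 and 772 CPM in the PARP1CKO libraries, a log2 difference of -0.19 ± 0.0415 (standard error, edgeR adjusted p = 0.186). H3f3b, a gene for the histone variant H3.3, had 724 ± 20.9 CPM without and 635 ± 17.8 CPM with the deletion of PARP1 (SD, n = 2), also a log2 difference of -0.19 (edgeR adjusted p = 0.2405). Dnmt3a, a DNA methyltransferase gene, and Eno1, of glycolysis, had log2 fold changes of -0.02 and -0.02 in PARP1CKO and 0.04 and 0.05 in PARP2CKO.

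Arginine methyltransferases act on the same side chains, and citrulline can no longer be methylated. Of 10 genes in this list, which are 9 methyltransferase genes and Jmjd6, an oxygenase gene, 9 were tested, with 6 lower and 3 higher in PARP1CKO and 3 lower and 6 higher in PARP2CKO. Prmt1, the main asymmetric methyltransferase, had 72.4 ± 2.75 CPM without and 68.0 ± 4.33 CPM with the deletion of PARP1, and Carm1, which methylates histone H3, at 53.5 ± 5.05 and 53.2 ± 5.37 CPM (SD, n = 2). Both pairs overlapped. Without overlap in PARP1CKO, Prmt3 and Prmt6 were lower (20.2% of all genes) and Prmt7 and Prmt9 higher (21.0% of all genes). Prmt3, a cytosolic methyltransferase gene, had the smallest adjusted p of the list (34.8 ± 0.414 against 31.1 ± 0.227 CPM, SD, n = 2, edgeR adjusted p = 0.288). Genes that make or use free citrulline were mostly low, with 4 of 10 tested. Ass1, argininosuccinate synthase, which consumes citrulline, had 16.4 and 18.7 CPM in the PARP1 WT libraries and 13.8 and 14.0 CPM in the PARP1CKO libraries (log2 difference -0.34, edgeR adjusted p = 0.176). Ddah2, of the dimethylarginine-hydrolysing enzymes that release citrulline, was higher in both PARP1CKO libraries (6.08 ± 0.359 against 7.98 ± 0.373 CPM, SD, n = 2, edgeR adjusted p = 0.304).

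Among 12 genes of extracellular traps and the oxidase behind them, 8 were lower and 4 higher in PARP1CKO and 6 and 6 in PARP2CKO. Mpo, myeloperoxidase, had 186 ± 18.9 and 176 ± 13.7 CPM in the PARP1 WT and PARP1CKO groups, against 236 ± 27.5 and 258 ± 7.87 CPM in the PARP2 WT and PARP2CKO groups (SD, n = 2). Cybb, the catalytic oxidase subunit, had log2 fold changes of 0.07 and 0.09 in PARP1CKO and PARP2CKO. The 8 genes of calcium entry and release, on which PAD activity depends, had medians of 0.00018 and 0.00048, and Stim1, the calcium sensor of the endoplasmic reticulum, had log2 fold changes of 0.03 and 0.03.

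**Figure D4:**
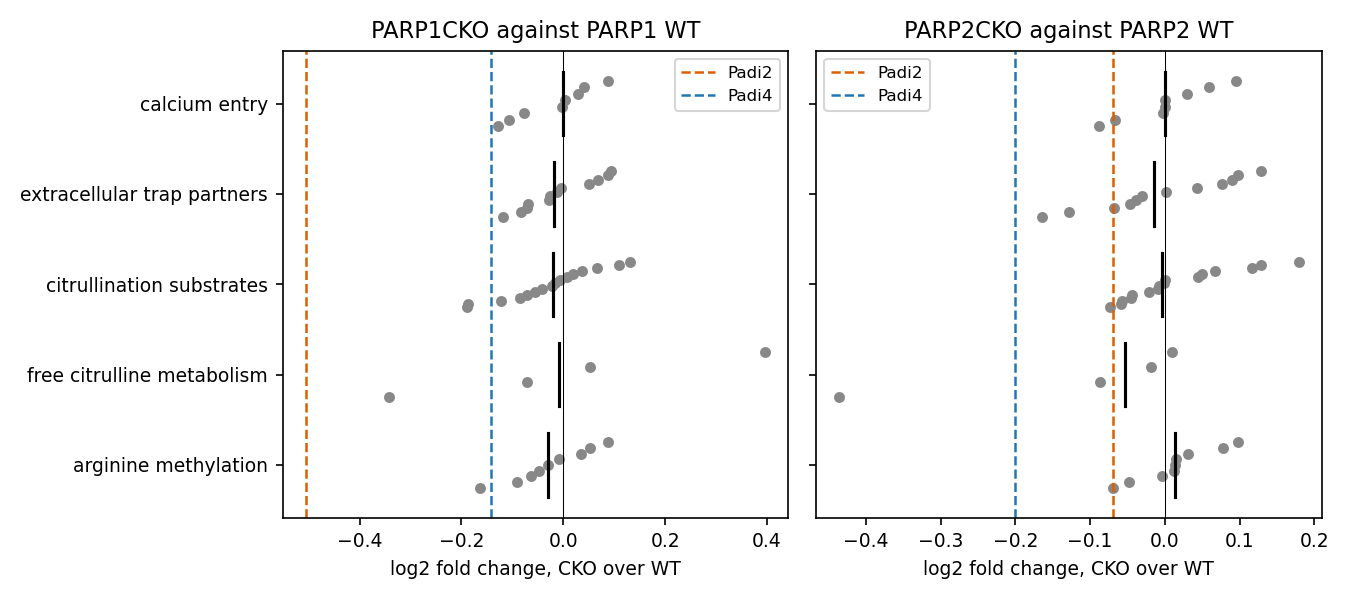
Fitted log2 fold change of each tested gene (points) in 5 pathway lists, with the list median as a black bar, for PARP1CKO (left) and PARP2CKO (right). Dashed lines mark Padi2 and Padi4. List medians lie between -0.03 and 0.00018 in PARP1CKO and between -0.05 and 0.01 in PARP2CKO.

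The genes whose pattern over the 8 libraries was most like that of a member were found by Pearson correlation of log2 CPM among 3896 genes with a range of at least 0.5, and are given as a description. The libraries share groups and lines, so these values rest on few independent points. For Padi2 they were Eltd1 (r = 0.969), Snora81 (0.946), Lysmd2 (0.918), Dusp1 (0.908) and Pira4 (0.9035, a gene with close copies). Some of these were low, with group means of 0.281 to 0.617 CPM for Lysmd2 and 1.78 to 2.93 CPM for Eltd1 and Snora81. Dusp1, a phosphatase of MAP kinases, had 61.0 and 54.2 CPM in the PARP1 WT libraries and 28.1 and 21.8 CPM in the PARP1CKO libraries. Groups separated in this downward direction for 20.2% of all genes. Dusp1 was picked for its likeness to Padi2, which this contrast chose, so the shared fall is a description only. For Padi4 they were Asb4 (r = 0.972), Tmem176b (0.967), Elane (0.947), Gas6 (0.945) and Plk3 (0.943). Asb4 was low too, with group means of 0.746 to 1.18 CPM. Elane, neutrophil elastase, which also works in extracellular traps, was at 44.3, 48.6, 41.2 and 47.4 CPM in the PARP1 line and 62.9, 61.1, 53.7 and 59.8 CPM in the PARP2 line. Like Padi4 it was higher in all 4 PARP2 line libraries than in all 4 of the PARP1 line (10.5% of all genes). Elane was picked here for its likeness to Padi4, so this shared split is a description only.

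Markers of the cell types that could carry these genes were measured beside them. Of 12 neutrophil markers 11 were in the table, all were tested and none was at 0, and their summed level ran from 2816 to 3550 CPM in the PARP1 line. It was 3561 and 3335 CPM in the PARP2 WT libraries and 3286 and 2888 CPM in the PARP2CKO libraries. In PARP2CKO 10 of the 11 were lower, 8 of them without overlap between the groups (18.8% of all genes), and their median log2 fold change of -0.20 stood beside that of Padi4 (-0.20). None of the 11 was called by the quasi-likelihood test (0.0530% of all genes), and 3 had an unadjusted p-value under 0.05 (4.83% of all genes). In PARP1CKO 6 were higher and 5 lower, with a median of 0.04. The 6 granulocyte progenitor markers summed to 272 to 320 CPM in the PARP1 line and 368 to 416 CPM in the PARP2 line, the same split of lines as Padi4. Mpo made up most of that sum, and 4 of the 6 genes split the lines (10.5% of all genes). The macrophage and monocyte marker sums also split the lines this way, at 4834 to 5298 and 264 to 293 CPM in the PARP2 line. In the PARP1 line they were 4447 to 4758 and 185 to 251 CPM. As single genes, 2 of 8 macrophage markers (Mertk and C1qb) and 1 of 4 monocyte markers (F13a1) split the lines. Of the 11 neutrophil markers 0 split them this way and 4 the opposite way (9.93% of all genes), namely Retnlg, Cxcr2, Csf3r and Mmp9, the last with 46.7 to 56.2 CPM in the PARP1 line and 21.5 to 32.5 CPM in the PARP2 line. The 4 monocyte markers were all lower in both CKO groups, with medians of -0.21 in PARP1CKO and -0.15 in PARP2CKO. Their sums were 223 and 251 against 185 and 225 CPM for PARP1 WT and PARP1CKO, which overlap, and 281 and 293 against 264 and 273 CPM for PARP2 WT and PARP2CKO, which do not. Of the 4 genes, the chemokine receptor gene Ccr2 separated the PARP1 groups (70.6 ± 1.07 against 55.7 ± 9.96 CPM, SD, n = 2, edgeR adjusted p = 0.289), as 20.2% of all genes did in this direction. Ly6c2 separated the PARP2 groups (72.01 ± 0.218 against 60.85 ± 0.267 CPM, SD, n = 2, edgeR adjusted p = 0.704), as 18.8% of all genes did. The sums of the 8 macrophage markers overlapped in PARP1CKO (4447 and 4724 against 4758 and 4616 CPM), while 2 of the 8, Emr1 (F4/80) and Mertk, were higher without overlap in both CKO groups (upward separation in 21.0% of all genes for PARP1CKO and 18.4% for PARP2CKO). Their part in the levels of Padi2 and Padi4 was not tested.

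Other lineages were rare. In sum, 7 B cell markers lay between 8.15 and 43.0 CPM, 6 T and NK cell markers between 1.87 and 3.08 CPM, 6 basophil and mast cell markers between 8.13 and 21.0 CPM, 5 dendritic cell markers between 9.77 and 16.6 CPM, and 8 erythroid markers between 2.06 and 10.3 CPM. The erythroid sum was higher in both PARP1CKO libraries (8.43 and 10.3 CPM) than in PARP1 WT (6.05 and 5.06 CPM), and lower in both PARP2CKO libraries (2.06 and 2.15 CPM) than in PARP2 WT (2.77 and 2.54 CPM). Hba-a1 and Hba-a2, near-identical globin genes, had the same values in every library, so this sum counts them as 2 genes. The basophil and mast cell sum was 11.1 and 12.7 CPM in PARP2 WT libraries and lower in PARP2CKO, at 8.13 and 10.5 CPM, as was Padi4. The B cell, basophil and mast cell, and erythroid sums were lower in all PARP2 line libraries than in all PARP1 line libraries, opposite to Padi4. Their part was not tested.

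**Figure D5:**
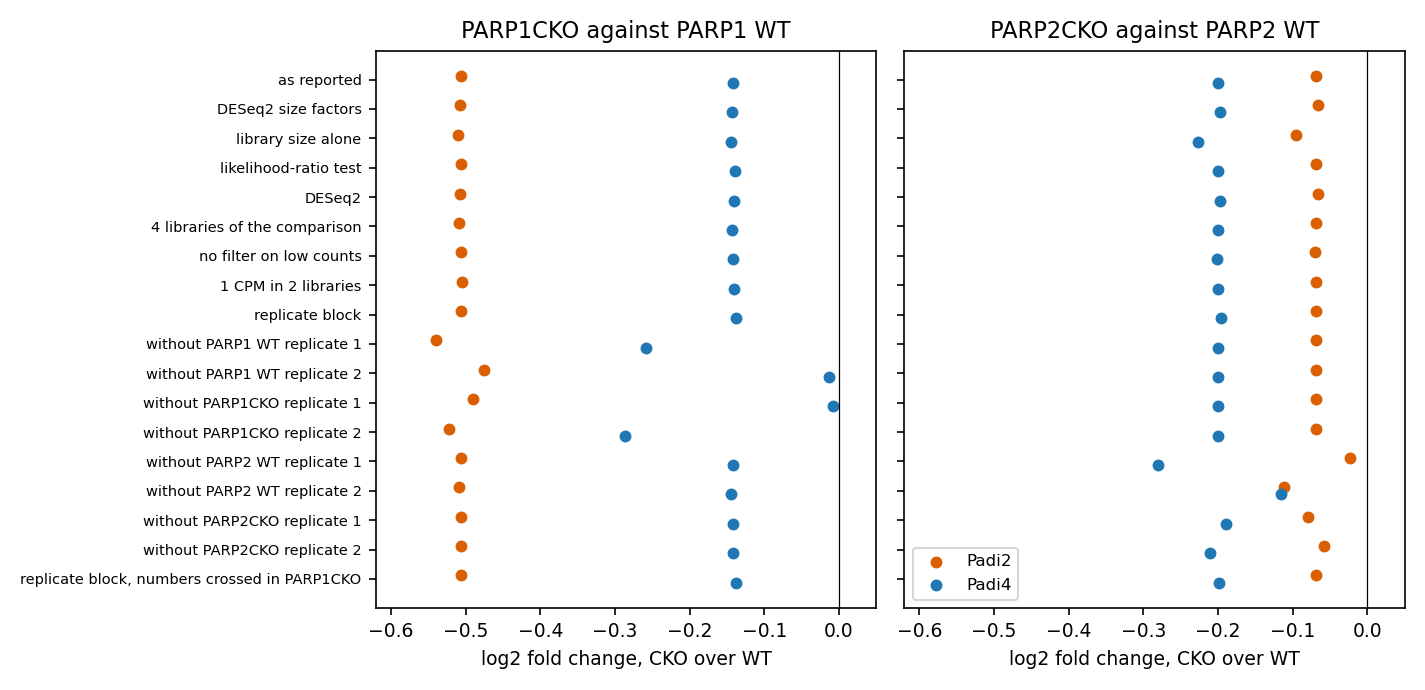
Fitted log2 fold change of Padi2 (orange) and Padi4 (blue) as reported and under 17 other settings, for PARP1CKO (left) and PARP2CKO (right). All values lie below 0, and Padi4 in PARP1CKO comes nearest to 0 (-0.0081) when 1 library is left out. Padi2 was chosen by the PARP1CKO contrast, so its sign there is a description only.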

How the data were processed

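Total RNA of IMCs was sequenced in 8 libraries of 4 groups, 2 in each, grouped by their titles. The authors deposited raw counts per gene. They mapped single-end reads to mm10 with TopHat (2.0.12), marked duplicates with Picard (1.127) and counted with featureCounts. The annotation, strand setting and use of marked or multi-mapped reads are not given in the sources used here, so counts of genes with close copies are uncertain.

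Genes were kept by edgeR's filterByExpr (13197 of 24062), scaled by TMM, and tested with edgeR's quasi-likelihood test (edgeR 4.0.16, R 4.3.3) in 1 model of the 4 group means over the 8 libraries, and p-values were adjusted by Benjamini-Hochberg at 0.05. The methods of the study name edgeR at this threshold, on FPKM. Log2 CPM used a prior count of 2. Tests were checked on simulated counts. Alternatives were other scalings and filters, the likelihood-ratio test, DESeq2 (1.42.0), a fit of 4 libraries, a replicate block and leaving out each library. Duplicates were not 1 library deposited again (chi-square between them per gene 8.56 to 12.9).

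Genes named are the members, Parp1, Parp2, list and marker genes, genes within 500 kb of the cluster and the 5 genes most like each member. Members and lists were chosen with earlier results of these data known. Adgre1 and Prmt9 were matched by their older symbols Emr1 and Prmt10.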

Additional observations from a re-analysis of the deposited data

How the results depend on the processing

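Padi2 and Padi4 kept a negative log2 fold change in both comparisons under all 17 alternatives to the reported settings. Neither passed the threshold in PARP2CKO under any of them. For Padi2 in PARP1CKO the kept sign lends no support, because this contrast chose the gene. Leaving out a library of the other line barely moves an estimate, and other scalings, filters and tests refit the same counts. In PARP2CKO the range was -0.11 to -0.02 for Padi2 (adjusted p from 0.821 to 1) and -0.28 to -0.12 for Padi4 (adjusted p from 0.589 to 1). Numbers of called genes moved more. In PARP1CKO 14 genes were called, against 146 with the likelihood-ratio test, 86 with DESeq2 and 101 without a filter on low counts. Without PARP1 WT replicate 1 or 2, 3 and 1 were called, and without PARP1CKO replicate 1 or 2, 34 and 7. In PARP2CKO 7 were called, against 39, 27 and 26 in the same order. Leaving out 1 library gave 4 (either PARP1 WT library) to 19 (PARP2 WT replicate 1), with 14 without PARP2 WT replicate 2 and 11 without PARP2CKO replicate 2. Of the pathway genes in PARP1CKO, 2 were called by the likelihood-ratio test and 2 by DESeq2, and with 1 library left out 0 to 1, that being Itpr3 without PARP1CKO replicate 1. The cause of these moves was not tested. Where a group keeps 1 library, it is assumed to vary like the others.

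Replicates share only a number. The differences between replicates 1 and 2 correlated at -0.133 between the PARP1 groups and 0.147 between the PARP2 groups. With the replicate block 14 and 6 genes were called, and with the numbers crossed in PARP1CKO, a setting chosen after seeing the data, 18 and 7 were called. The block changed no call for Padi2 or Padi4 in PARP2CKO. Depth limits Padi1, Padi3 and Padi6.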
